A study of Mus musculus with 4 samples.

Results

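Zscan4 and other genes of the 2-cell embryo were followed on 4 arrays of mouse embryonic stem (ES) cell RNA. The 7 genes Zscan4a, Zscan4c, Zscan4d, Zscan4f, Tcstv1, Tcstv3 and AF067061 were chosen from these same arrays for their higher signal with both inhibitors, so their inhibitor minus control differences are given as a description. All probes named for one of them in the scanner files were taken. This gave 10 probes of 6 genes, among 36163 gene names on the array. No probe carried the name Zscan4d, although its RefSeq accession was listed for the Zscan4f probe, the first Zscan4c probe and a probe named Zscan4e. Values for Zscan4d could therefore not be read apart from those of its copies.

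The study asked what blocking chromatin regulators does to ES cells as they become primed to differentiate. All samples came from E14Tg2A, an established ES cell line of strain 129/Ola, so they describe 1 line. The ES group was untreated and taken at day 0, in serum with the cytokine LIF on gelatin. The epiblast-like aggregate (ELA) group was taken untreated after 2 days in a defined minimal medium. The ELA + AZA group had received 50 nM 5-azacytidine, a cytidine analogue that inhibits DNA methyltransferases, while aggregates formed. The ELA + CHQ group had received 100 µM 5-carboxy-8-hydroxyquinoline, an inhibitor of lysine demethylases, over the same time. Each group was measured once, on 1 array holding a pool of 3 experiments, so no difference has a replicate check and no p-value is given.

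Zscan4 genes encode nuclear proteins with a SCAN domain and zinc fingers, and in mice they form a cluster of near-identical copies on chromosome 7. They are transcribed in the late 2-cell embryo and, at any moment, in a small fraction of cultured ES cells, where they are known for telomere lengthening and genome stability. Tcstv1, Tcstv3 and AF067061 belong to another family that is active at the same stage. The homeodomain factor Dux and endogenous retroviral promoters drive much of this stage's transcription, and DNA methylation and repressive histone methylation keep it silent in most ES cells. In pooled RNA, more cells in this state and more transcript per cell cannot be told apart.

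Because the copies are so alike, the probes set what the measurements can resolve. Probes of 60 bases were used, each present as 1 spot. The 3 probes printed whole here start at base 804 of the Zscan4c target, base 260 of Tcstv1 and base 302 of AF067061.
Zscan4c, probe 1: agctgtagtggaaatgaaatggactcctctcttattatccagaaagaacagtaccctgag
Tcstv1: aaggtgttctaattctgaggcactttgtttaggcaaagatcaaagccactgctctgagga
AF067061, probe 1: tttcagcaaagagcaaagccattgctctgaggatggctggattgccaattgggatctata

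The last 33 bases of the Tcstv1 probe and the first 33 of this AF067061 probe matched at 29 positions. The Zscan4a and Zscan4c probes came closest to each other, since Zscan4a probe 1 and Zscan4c probe 3 overlapped by 58 bases and differed at 2 of them. Counted from 1 at the 5′ end of the Zscan4a probe these were A56G and T57C. The last 30 bases of that overlap are shown because both probes are set beside each other for the ELA array further on, with the differing bases in capitals.
Zscan4a, probe 1: tgcattgcctcttcagacatctcatATcat
Zscan4c, probe 3: tgcattgcctcttcagacatctcatGCcat

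For the remaining probes the first 30 bases are given.
Zscan4c, probe 2: tacagtgttcttgacagaagcctggcattc
Zscan4a, probe 2: atgtcatgtctactgcttacagttcaagaa
Zscan4f: atgttgcaagtaaattgtactgtcccaata
Tcstv3: cttcaaagagcttttcgccagaagtgagaa
AF067061, probe 2: gtgtctttgtagccatctgggttttggttg

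In the coordinates of the files (build mm9) the Zscan4c probes lay at chr7:11594425-11594484, chr7:11595690-11595748 and chr7:11595751-11595810 on the plus strand. The Zscan4f probe lay at chr7:11987608-11987667 on the plus strand. The Zscan4a probes lay at chr7:11379679-11379738 and chr7:11379626-11379685 on the minus strand. The Tcstv3 probe and AF067061 probe 1 were placed on unassembled sequence (chrUn_random, 3205 to 3264 and 3551 to 3610), and the Tcstv1 probe and AF067061 probe 2 had no position. The accessions listed beside the probes name further copies. Zscan4c probe 1 carried those of Zscan4a, Zscan4c and Zscan4d, Zscan4c probe 3 those of Zscan4a and Zscan4c, and the Zscan4f probe carried those of Zscan4a, Zscan4c, Zscan4d and Zscan4f. AF067061 probe 1 carried those of AF067061 and Tcstv3. RefSeq (assembly GRCm38.p6) lists Zscan4a as a transcribed pseudogene and the other 6 members as protein coding. The files did not say whether a probe lies in coding sequence.

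Promoters were read from RefSeq (build GRCm38.p6) as the 300 bases from 250 before to 50 after each start. Of the members, Zscan4c, Zscan4d, Zscan4f and AF067061 were matched, and Zscan4b was added for comparison. Over the best ungapped overlap the Zscan4c promoter was 99.3% identical to that of Zscan4f and 97.2% identical to that of Zscan4d, so these promoters are copies and not separate observations. They held 4 CpG (Zscan4c), 3 (Zscan4d), 3 (Zscan4f) and 1 (Zscan4b). The AF067061 promoter held 2, against a median of 7 and quartiles of 3 and 20 over 32851 promoters.

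The motif known for Dux, a pair of homeodomain sites facing each other across 2 free bases, was searched on both strands. Each of the 4 Zscan4 promoters held 1 match on the strand opposite to the gene. It began 114 bases before the start in Zscan4c, 125 in Zscan4d, and 91 in Zscan4f and Zscan4b. It reads TGATAGAATCA on the strand of the gene and stands in capitals in these windows of 41 bases, which show how far the copies agree around it.
Zscan4c (chr7:11005616-11005656, plus strand): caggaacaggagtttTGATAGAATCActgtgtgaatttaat
Zscan4d (chr7:11166248-11166288, minus strand): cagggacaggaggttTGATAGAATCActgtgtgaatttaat
Zscan4f (chr7:11397809-11397849, plus strand): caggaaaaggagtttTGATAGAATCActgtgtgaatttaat
Zscan4b (chr7:10905116-10905156, minus strand): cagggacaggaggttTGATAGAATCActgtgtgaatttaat

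Of all promoters, 0.207% held the motif. AF067061 held none in this window, and neither did any of 37 promoters found for the other 2-cell stage genes described further on. After the promoters had been read, 4 more strings were searched on both strands. TATAAAAGG, which contains the TATA box letters TATAAA, occurred in all 4 Zscan4 promoters and in 0.706% of all promoters. It began 54 bases before the start in Zscan4c, 65 in Zscan4d, and 31 in Zscan4f and Zscan4b. TATAAA alone occurred in 13.6% of promoters, and AF067061 lacked both of these exact strings. Variant TATA letters were not searched, and the AF067061 stretch printed below holds tatataag. TGATTCAA occurred in Zscan4c, Zscan4d, Zscan4f and AF067061, was absent from the Zscan4b window, and occurred in 0.581% of all promoters. TTTAATC occurred in all 5 promoters shown here and in 3.27% of all. Over the best ungapped overlap the Zscan4c and AF067061 promoters were 34.6% identical, and no chance level was computed. Their longest shared run was 12 bases, tctattactttg, which in AF067061 does not lie within the 250 bases printed below. The 250 bases upstream of both starts are given, with TGATAGAATCA, TATAAAAGG and TGATTCAA in capitals.
Zscan4c (chr7:11005495-11005744, plus strand): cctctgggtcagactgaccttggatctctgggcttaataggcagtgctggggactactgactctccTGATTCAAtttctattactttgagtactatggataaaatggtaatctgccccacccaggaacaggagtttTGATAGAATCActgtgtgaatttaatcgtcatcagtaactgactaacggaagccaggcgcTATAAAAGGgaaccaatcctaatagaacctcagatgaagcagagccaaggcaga
AF067061 (chr13:120262845-120263094, plus strand): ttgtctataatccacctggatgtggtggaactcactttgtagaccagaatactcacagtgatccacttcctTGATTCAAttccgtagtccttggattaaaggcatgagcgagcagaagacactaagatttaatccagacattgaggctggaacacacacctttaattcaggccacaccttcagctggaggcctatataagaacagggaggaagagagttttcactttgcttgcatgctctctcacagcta

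The arrays differed in ways that touch every inhibitor comparison. ES and ELA were on slide 1, and ELA + AZA and ELA + CHQ on slide 2, so that treatment and slide cannot be told apart in any comparison of an inhibitor with ELA or ES. Local background around the spots had a median of 59 and 77 units on slide 1 and of 14 and 13 on slide 2. The share of gene spots that Feature Extraction marked as well above background was 55.1% on the ELA array and 60.6% to 69.2% on the others. Repeated spots of 1 probe differed by an SD of 0.12 to 0.17 on the log2 scale. All 7 pluripotent cell markers were well above background on every array, including Pou5f1 and Sox2.

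Markers of other cells moved too, and their part in the results was not tested. Of 6 primitive endoderm markers, 3, 2, 6 and 5 were well above background on the ES, ELA, ELA + AZA and ELA + CHQ arrays, and their summed signal was 9.54, 9.68, 10.00 and 11.27 (log2). The transcription factors Gata6 and Sox17, at background on ELA (6.69 and 6.76), were called higher on ELA + CHQ (9.89 and 9.51) and not on ELA + AZA. Dab2, an endocytic adaptor, was called lower with both inhibitors, at 8.25 on ELA, 6.78 on ELA + AZA and 6.91 on ELA + CHQ. For 6 trophoblast markers the counts were 5, 2, 4 and 5 and the sums 12.94, 11.19, 12.29 and 13.40, and Elf5 was well above background on the ELA + CHQ array only. Tfap2c was called lower in ELA than in ES and higher with both inhibitors than in ELA. For 7 fibroblast markers the counts were 4, 4, 5 and 5 and the sums 12.43, 13.76, 12.99 and 11.75, with Postn and Lum at background on every array. Thy1 and Dcn were called higher in ELA than in ES. With AZA Col1a1 was called higher than in ELA, and Col1a2 and Dcn lower, and with CHQ Col1a2, Dcn and Thy1 were called lower. For 6 oocyte markers the counts were 2, 2, 3 and 3 and the sums 11.45, 9.81, 11.02 and 9.46, with Bmp15, Zp2 and Oosp1 at background on every array. Zp3 was called lower in ELA than in ES and higher with AZA than in ELA, and Zp3 and Gdf9 were called lower with CHQ than with AZA.

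The Zscan4f probe gave the widest span of the Zscan4 probes. Its level, as log2 of the normalised intensity, was 10.30 for ES, 6.17 for ELA, 14.34 for ELA + AZA and 14.20 for ELA + CHQ. The ELA spot was not well above background, so that array gives only a bound. For such a bound, the dimmer array was given the larger of the dim probe's own signal and the faintest signal that any probe with a well above background mark had there. Zscan4f signal was thus at least 11.8-fold lower in ELA than in ES, at least 194-fold higher with AZA than in ELA and at least 176-fold higher with CHQ. These bounds, and those given below, hold only for the quantile normalisation used here. Scaled to spike-in RNA instead, the Zscan4f CHQ minus ELA difference was 7.30 (log2), short of its bound of 7.46.

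Zscan4c was read by 3 probes. Probe 3, starting at base 2130 of its target, had log2 levels of 9.29 (ES), 6.16 (ELA), 12.79 (AZA) and 13.12 (CHQ). Its ELA spot was not well above background, and the bounds were at least 5.86-fold lower in ELA than in ES, at least 66.1-fold higher with AZA than in ELA and at least 83.2-fold higher with CHQ. With spike-in scaling the CHQ minus ELA difference was 6.31 (log2), short of its bound of 6.38. Probe 1, starting at base 804, had log2 levels of 7.37, 6.62, 10.39 and 9.95 in the same order of arrays. ELA was again not well above background there, and the bounds were at least 12.5-fold for AZA and at least 9.26-fold for CHQ. With spike-in scaling these differences were 3.35 and 2.85 (log2), short of the bounds of 3.65 and 3.21. Probe 2 behaved otherwise in the control. Its log2 levels were 8.86 (ES), 8.56 (ELA), 12.10 (AZA) and 12.25 (CHQ), with all 4 spots well above background. The inhibitor arrays were 11.6-fold (AZA) and 12.9-fold (CHQ) brighter than ELA, while ELA was at 0.812 of ES.

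Zscan4a, the pseudogene copy, showed the same split between its probes. Probe 2 had log2 levels of 8.54 (ES), 6.26 (ELA), 12.01 (AZA) and 12.20 (CHQ), and only the ELA spot was not well above background. Its bounds were at least 38.5-fold for AZA over ELA and at least 43.9-fold for CHQ. With spike-in scaling the CHQ minus ELA difference was 5.34 (log2), short of its bound of 5.46. Probe 1 had log2 levels of 8.92, 8.19, 12.60 and 12.83, all well above background, and the inhibitor arrays were 21.2-fold and 24.9-fold brighter than ELA.

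On the ELA array 2 Zscan4 probes were therefore well above background, at raw intensities of 345 (Zscan4c probe 2, over a local background of 68) and 278 (Zscan4a probe 1, over 74). The other 4 Zscan4 probes had raw intensities of 86.6 to 95.9 there, over local backgrounds of 58 to 89. Zscan4a probe 1 and Zscan4c probe 3, the pair printed above with A56G and T57C between them, fell on different sides, although the accessions of the latter include Zscan4a. The ELA minus ES log2 difference was -0.73 for the former, and the latter was lower in ELA by at least 2.55. What set these probes apart was not tested, and with 1 spot per probe a local fault of a spot could not be checked.

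Tcstv1 and Tcstv3 were at or near background without an inhibitor. Tcstv1 had log2 levels of 6.82 (ES), 6.18 (ELA), 9.65 (AZA) and 10.70 (CHQ), and its ELA spot was not well above background. Its bounds against ELA were at least 7.52-fold for AZA and at least 15.6-fold for CHQ. Tcstv3 had log2 levels of 6.61, 6.27, 9.23 and 10.71, with neither the ES nor the ELA spot well above background. Tcstv3 signal was at least 5.62-fold higher with AZA than in ELA and at least 15.7-fold higher with CHQ. With spike-in scaling its CHQ minus ELA difference was 3.90 (log2), short of its bound of 3.97. Both genes were thus well above background on the inhibitor arrays, and Tcstv1 also in ES.

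AF067061, a relative of Tcstv3, was read by 2 probes. Probe 2 had log2 levels of 11.77 (ES), 7.65 (ELA), 15.89 (AZA) and 16.53 (CHQ), all well above background, and no spot was saturated. It was 302-fold brighter with AZA and 473-fold brighter with CHQ than in ELA, while ELA was at 0.0573 of ES. On the log2 scale the inhibitor differences were 8.24 (AZA) and 8.89 (CHQ). They became 7.88 and 8.20 with spike-in scaling and 8.84 and 9.44 in the deposited value table. Probe 1, whose accessions include Tcstv3, had log2 levels of 8.21, 6.39, 12.07 and 12.96. Its ELA spot was not well above background, and the bounds were at least 40.1-fold for AZA and at least 74.3-fold for CHQ. With spike-in scaling these differences were 5.24 and 5.93 (log2), short of the bounds of 5.32 and 6.22.

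**Figure D1:**
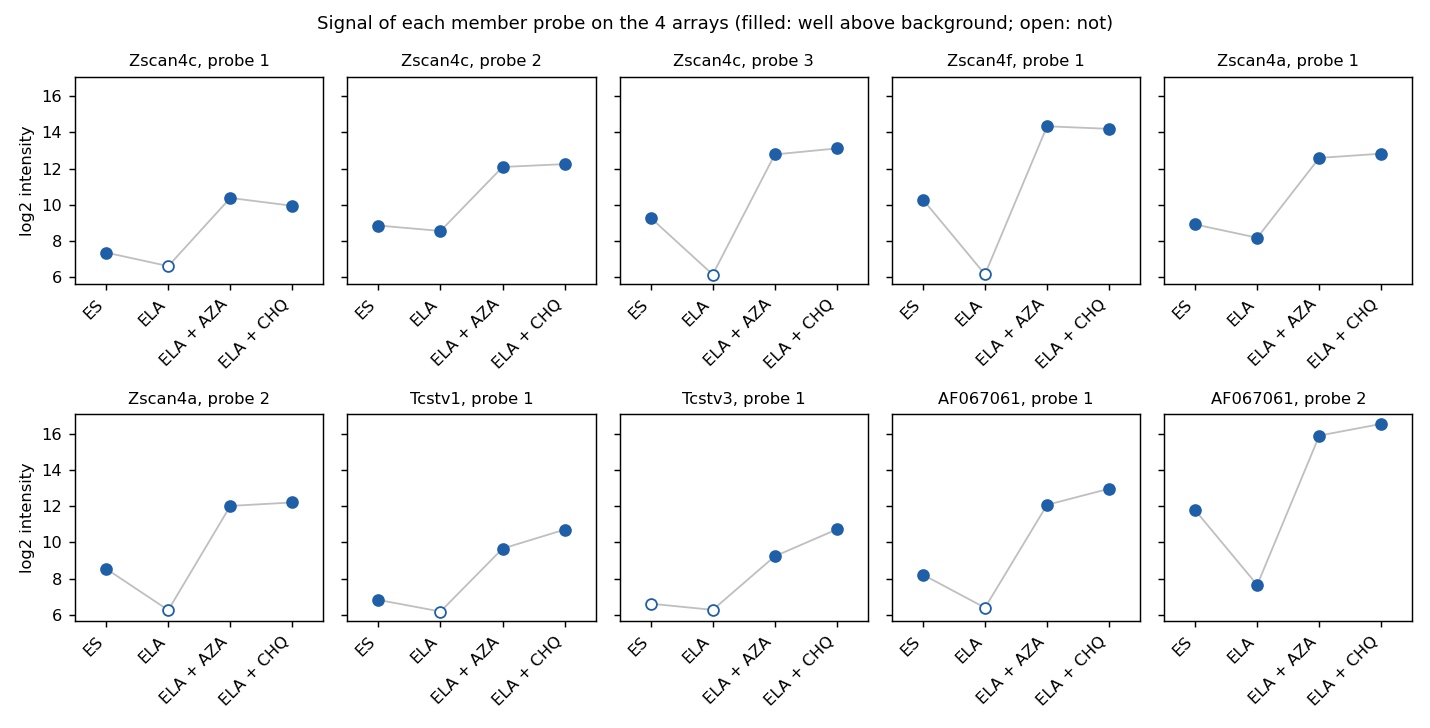
Each panel plots 1 probe's normalised intensity (log2, vertical axis) on the ES, ELA, ELA + AZA and ELA + CHQ arrays, with 1 array per group and no error bars. Filled points were well above background and open points were not; both inhibitor arrays are the highest in every panel, and ELA is the lowest except for Tcstv3, where ES and ELA are both at background.

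The first comparison asked how these genes differ between untreated ES cells and untreated aggregates, both on slide 1. All 10 probes read lower in ELA than in ES, Tcstv3 at background on both, with a median log2 difference of -1.29 and a range from -4.13 to -0.30. Well above background were 9 of 10 probes in ES and 3 of 10 in ELA. A probe was called when the difference was at least 1 on the log2 scale, the mean of both arrays was at least 7.5 (log2) and at least 1 spot was well above background. Of the 10 probes 5 passed the filter on level and detection, and 3 were called lower (Zscan4f, Zscan4c probe 3 and AF067061 probe 2). Over all probes tested the median was -0.02 and 5.63% were called lower. A rise over this same ELA array chose the genes, which favours a low ELA value, so nothing about them is read against that share. The median of the members was -3.65 with percentile scaling, -2.25 with a normexp offset of 0 and -2.23 in the deposited value table. Scaling to spike-in RNA in place of quantiles moved the median of all probes to -0.62 and that of the members to -1.62, with 6 members called lower. The count was 1 with a normexp offset of 0 and with the deposited value table. The other 5 probes were too dim for a call, and their bounds reached at least 1.06-fold (Tcstv1), 1.55-fold (Zscan4c probe 1), 2.78-fold (AF067061 probe 1) and 3.48-fold (Zscan4a probe 2). Tcstv3, at background on both arrays, has no fold.

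The next comparisons set each inhibitor against untreated ELA, which both share as control. These are the differences by which the genes were picked, so their counts carry no weight of their own. With AZA all 10 probes were called higher, at a median log2 difference of 5.04 (range 2.96 to 8.24), where 14.1% of all probes tested were called higher. Percentile scaling gave 7 called at a median of 7.62. A normexp offset of 0 and the deposited value table each gave 8, and no background correction gave 9. With CHQ all 10 were called higher, at a median of 5.29 (range 3.33 to 8.89), where 14.2% of all probes were. Percentile scaling gave 7 called at a median of 7.86, and the deposited value table also gave 7. A probe dim in ELA could pass the filter on level only through the inhibitor array.

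Set against ES instead, the inhibitor arrays were again brighter at all 10 probes. The medians were 3.48 for AZA (range 2.62 to 4.11) and 3.89 for CHQ (range 2.58 to 4.76) on the log2 scale. All 10 were called in both cases, where 10.7% and 11.9% of all probes were called higher. With spike-in scaling the medians were 2.84 (AZA) and 3.04 (CHQ). The genes were picked for high signal on these same inhibitor arrays, so nothing is read from these counts either. In linear terms AZA over ES ran from 7.12-fold for Tcstv1 to 17.3-fold for AF067061 probe 2, and Zscan4f was 16.5-fold brighter. CHQ over ES ran from 5.98-fold for Zscan4c probe 1 to 27.1-fold for AF067061 probe 2, and Zscan4f was 14.9-fold brighter. Tcstv3, not well above background in ES, gave at least 6.14-fold for AZA and at least 17.2-fold for CHQ, or 2.62 and 4.10 on the log2 scale. These hold only for the quantile normalisation. With spike-in scaling the lowest value of its family was 1.94 (log2) for AZA, and the highest was 3.91 for CHQ. Both inhibitor arrays were thus above ES, and ES above ELA, at 9 of 10 probes, while Tcstv3 was at background in both ES and ELA and has no order there.

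The inhibitors themselves were compared on slide 2, where all 10 probes were well above background on both arrays. The 6 Zscan4 probes differed little, with a median CHQ minus AZA log2 difference of 0.17 and a range from -0.44 (Zscan4c probe 1) to 0.33 (Zscan4c probe 3). Zscan4f was at -0.14. The pooled SD between probes of 1 gene in this comparison was 0.30 over 6643 genes. The 4 probes of the other family were all higher with CHQ, by 0.65 and 0.89 at AF067061, 1.05 at Tcstv1 and 1.48 at Tcstv3, a median of 0.97. Only Tcstv1 and Tcstv3 were called higher, that is 2 of 10 probes beside 5.02% of all probes tested, whose median was -0.03. The ranges of the 2 families did not overlap. With 1 array per inhibitor, whether they differ was not tested.

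**Figure D2:**
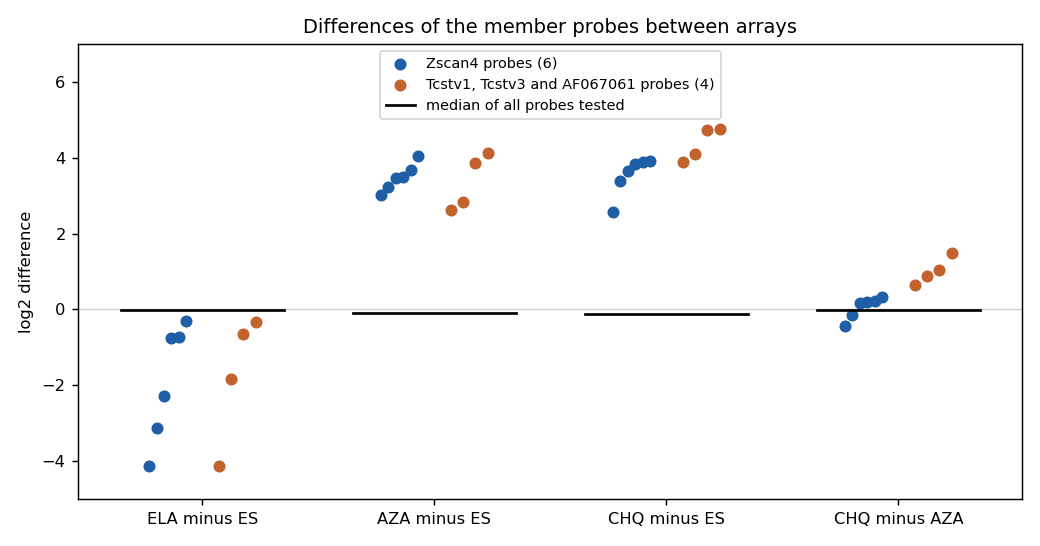
Points are log2 differences (vertical axis) of the 6 Zscan4 probes and the 4 probes of Tcstv1, Tcstv3 and AF067061 in 4 comparisons; the black line is the median of all probes tested. Against ES the probes lie between 2.58 and 4.76, and in CHQ minus AZA the Zscan4 probes lie from -0.44 to 0.33 and the others from 0.65 to 1.48.

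Other genes of the 2-cell stage were read from a list of 77 symbols other than those of the members, of which 57 had a probe, using the brightest probe of each. Many are themselves copies with shared sequence. Well above background were 33 of 57 in ES and 20 in ELA, while AZA had 45 and CHQ 51. In ELA against ES, 19 passed the filter on level and detection, and 0 were called higher and 9 lower, beside 4.45% and 5.59% of all genes tested. With AZA 22 were called higher and 0 lower of 30 past the filter, beside 14.3% and 11.4% of all genes. With CHQ 28 were called higher and 0 lower of 35, beside 14.8% and 11.9% of all genes, and the 28 became 17 with percentile scaling and 18 in the deposited value table. As with the members, a gene dim in ELA could pass the filter only through the other array, ES or inhibitor, where it was high. All of these counts, those against ES included, therefore carry no weight of their own. The median log2 differences over the 57, dim genes included, were -0.19, 1.15 and 1.33, and the last 2 became 2.37 and 2.79 with percentile scaling. Over all genes past the filter they were -0.02, -0.07 and -0.09. The 19 listed genes past it in ELA against ES had -0.81, a value that the same filter favours. In CHQ against AZA 4 were called higher and 3 lower of 38, beside 5.53% and 4.81%.

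The list's largest measured inhibitor minus ELA differences were at Gm20767, with log2 levels of 10.89 (ES), 7.0 (ELA), 15.16 (AZA) and 15.90 (CHQ). Genes not well above background in ELA have only a lower limit there, so this order is not exact. Zscan4e, a Zscan4 pseudogene whose probe also lists the members Zscan4d and Zscan4f and so may read them, had 9.93, 6.23 (not well above background), 14.20 and 13.97. Gm4340 had 10.92, 7.49, 14.01 and 14.63, and Gm2022 had 9.08, 6.59 (not well above background), 12.77 and 13.62. BB287469 had 8.68, 6.77 (not well above background), 12.51 and 13.15. These 5 genes were below ES in ELA and above ES on both inhibitor arrays. Not all of the list shared this pattern. Chosen after their values were seen, AF067063 had 9.87, 9.97, 9.47 and 9.73 and was called in none of these comparisons. The zinc finger gene Zfp352, a common marker of the 2-cell embryo, had 13.66, 12.41, 12.84 and 12.63, so that it was called lower in ELA than in ES and was not called against ELA with either inhibitor. The brighter of 2 Dux probes had 7.14 (ES), 6.78 (ELA, not well above background), 7.17 (AZA) and 6.88 (CHQ).

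**Figure D3:**
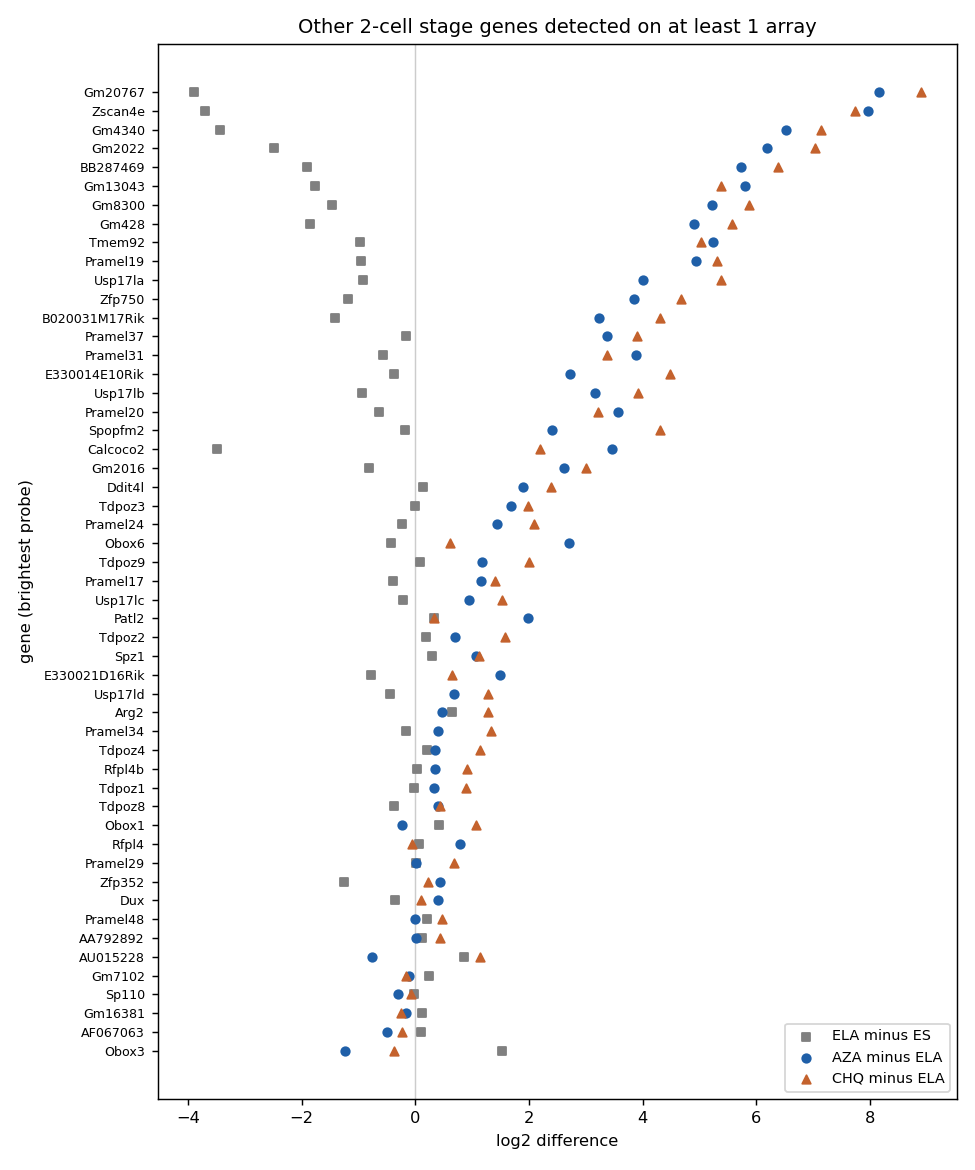
Log2 differences (horizontal axis) of the listed 2-cell stage genes detected above background anywhere, by the brightest probe of each, sorted by the mean of both inhibitor differences. Gm20767 lies at 8.16 (AZA) and 8.90 (CHQ) against ELA, while AF067063 lies at -0.50 and -0.24.

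Known regulators of the 2-cell-like state, factors that promote it or keep it silent, had 35 genes measured. In ELA against ES 2 were called higher and 8 lower, beside 4.45% and 5.59% of all genes tested, and with spike-in scaling 0 higher and 13 lower. With AZA, and again with CHQ, 7 were called higher and 4 lower than in ELA, beside 14.3% and 11.4% of all genes with AZA and 14.8% and 11.9% with CHQ, and the medians were -0.16 and -0.23 on the log2 scale. The 4 lower with CHQ became 11 with percentile scaling and 12 with spike-in scaling. Tbx3, a T-box factor, had log2 levels of 10.72 (ES), 8.46 (ELA), 13.56 (AZA) and 12.03 (CHQ). Zfp42, a zinc finger gene of pluripotent cells, had 15.80, 11.99, 15.72 and 15.04. Dppa3, a maternal factor, had 12.37, 10.43, 9.97 and 7.0, so that it was lowest on the CHQ array. Dnmt3l, the cofactor of de novo DNA methylation, had 15.96, 13.22, 16.33 and 15.38, and Tet2, a methylcytosine oxidase, had 12.07, 9.05, 11.68 and 11.55. Zfp42 and Tet2 with either inhibitor stood no higher than in ES.

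Zscan4 is tied to telomeres and recombination, and 11 genes of these processes were measured. In ELA against ES 0 were called in either direction, beside 4.45% higher and 5.59% lower of all genes, and with 11 genes nothing is read from that count. With AZA 1 was called higher and 1 lower than in ELA, beside 14.3% and 11.4% of all genes. With CHQ 1 was higher and 0 lower, beside 14.8% and 11.9%. Smc1b, the meiotic cohesin subunit, had log2 levels of 8.99 (ES), 8.09 (ELA), 12.74 (AZA) and 10.03 (CHQ). Pot1a, which binds single-stranded telomeric DNA, had 12.98, 13.16, 12.12 and 12.30.

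Finally, genes with a profile like that of the members were sought among 14168 genes well above background on the ES, AZA and CHQ arrays. The measure was Euclidean distance of the centred log2 values over 4 arrays. Members and genes named only as clones or predicted genes, such as Gm20767 and BB287469, were left out. Nearer profiles among those would therefore not appear here. The target was the median profile of the 9 member probes well above background on those 3 arrays. Nearest was Ephx1, microsomal epoxide hydrolase, at a distance of 0.45, with log2 levels of 11.67, 8.87, 15.09 and 15.08. Nkx2-9, a homeobox gene, followed at 0.49, with 9.36, 6.90, 12.37 and 13.32. Dglucy, D-glutamate cyclase, was at 0.61, Anxa8, an annexin, at 0.74 and Pramel39, of the Prame-like family, at 0.80. A second Ephx1 probe gave an AZA minus ELA log2 difference of 1.10 against 6.21 for the brightest, and a second Dglucy probe 2.48 against 5.13. In ELA 6 of the 9 target probes were at background, so the distances and their order rest in part on background values and, with 4 arrays, are a description.

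**Figure D4:**
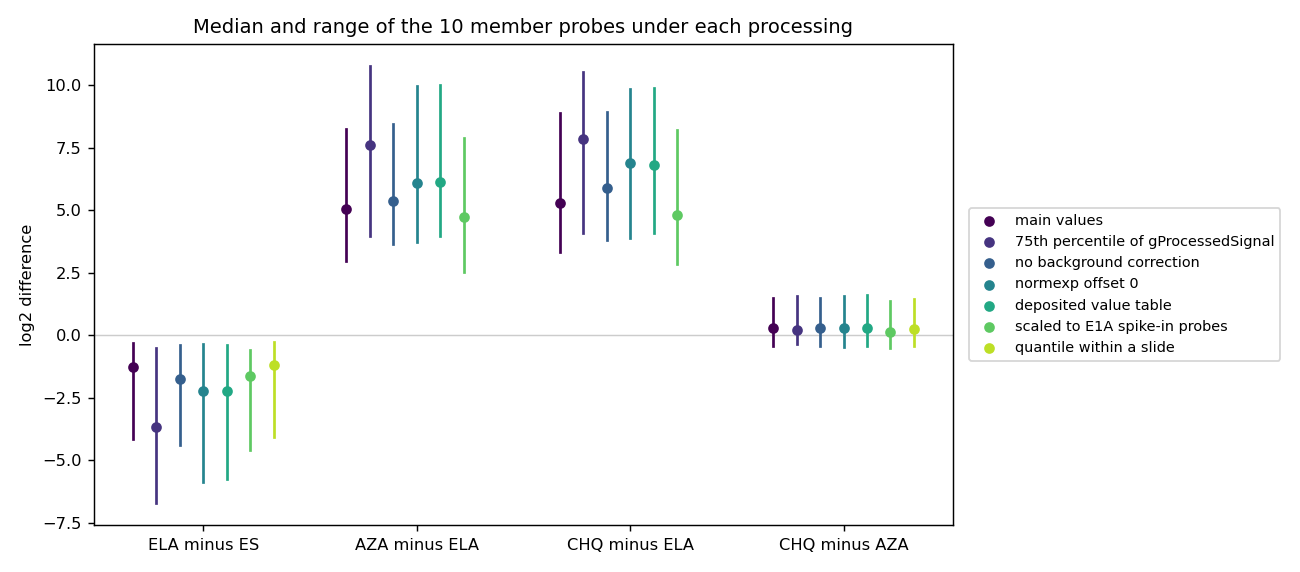
Median (point) and range (line) of the log2 differences of the 10 member probes under each way of processing, for 4 comparisons. ELA minus ES stays below 0 and both inhibitor differences stay above 0 throughout; the median for AZA minus ELA runs from 4.74 (spike-in scaling) to 7.62 (percentile scaling).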

How the data were processed

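Cy3-labelled RNA of 4 groups was hybridised to single-colour Agilent arrays, 1 per group. Per the file headers, the authors read the scans with Feature Extraction 10.7.3.1 (the submitters' processing notes name 9.1), which gave the deposited intensity of each spot and of its local background, not normalised between arrays. A deposited table of log2 values, which the authors made with limma by background correction and quantile normalisation, served as an alternative.

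From the scanner files, spot means were corrected with normexp on the local background (offset 50) and quantile-normalised over all 4 arrays in limma 3.58.1 (R 4.3.3). Control spots and outlier-flagged spots were dropped and spots of a probe averaged, which left 55122 probes and removed 559. No saturated gene spot occurred. The steps were tested on simulated data. The size rule is given in the report. The number of arrays limits the precision.

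Members and lists were chosen with earlier results of these data known. Named from each list were at most 5 genes past the size rule with the largest inhibitor minus ELA difference. Also named were the 5 nearest profiles among genes with an ordinary symbol, without clone and predicted-gene names. The accessions of 26367 probes were found in a RefSeq table (GRCm38.p6) and updated their names. Alternatives were the 75th percentile of the processed signal, no background correction, an offset of 0, the deposited table, 7 E1A spike-in probes, quantile normalisation within a slide, no filter on dim probes, a log2 limit of 2 and the mean over probes. Protein features were planned and not analysed here.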

Additional observations from a re-analysis of the deposited data

How the results depend on the processing

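No direction of a member median reversed under any alternative run. For CHQ minus AZA, spike-in scaling left 7 of 10 member probes above 0 in place of 8, and the ranges of the Zscan4 probes and the other 4 member probes did not overlap in any of the 6 alternative scalings. An alternative was read as moved when a median shifted by more than the pooled SD between probes of 1 gene, or a count by more than 1.5 times. No paired analysis was possible because each group had 1 array, and for the same reason no array could be left out. With 1 array per group the differences describe these arrays only, and in ELA 7 of 10 member probes were at background, so their size against ELA depends on how background was handled.

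The median member difference, ELA minus ES, was -1.29 and became -3.65 with the 75th percentile scaling, -1.75 with no background correction, -2.25 with an offset of 0, -2.23 in the deposited table and -1.62 with spike-in scaling. AZA minus ELA (5.04) became 7.62, 6.09 and 6.13 with the percentile, offset 0 and deposited table, and CHQ minus ELA (5.29) became 7.86, 6.90 and 6.82, and 5.90 with no background correction. Spike-in scaling gave 2.84 for AZA minus ES (3.48) and 3.04 for CHQ minus ES (3.89), where the median of all probes moved to -0.87 and -1.03. In ELA minus ES that scaling moved the median of all probes from -0.02 to -0.62. Member probes called lower in ELA minus ES (3) were 1 with offset 0 and with the deposited table, 6 with spike-in scaling and 5 without the filter. Those called higher in CHQ minus AZA (2) were 1 with spike-in scaling and 0 at a limit of 2.

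For the 2-cell stage list, the ELA minus ES median was -0.62 with spike-in scaling, with 1 gene higher (0) without the filter, and 5 lower (9) in the deposited table and at a limit of 2. The AZA minus ELA median (1.15) was 2.37, 2.00 and 2.06 with percentile, offset 0 and deposited table, and 1 gene was lower (0) without the filter. The CHQ minus ELA median (1.33) was 2.79, 2.21 and 2.23, and genes higher (28) were 17 with the percentile and 18 in the deposited table. In CHQ minus AZA the limit of 2 gave 0 higher (4) and 1 lower (3). For the regulators, spike-in scaling gave an ELA minus ES median of -0.79 with 0 higher (2) and 13 lower (8), and 12 lower (4) in CHQ minus ELA. There the percentile gave 11 lower and the mean over probes 7. The limit of 2 gave 0 higher and 4 lower in ELA minus ES, 4 higher (7) with either inhibitor, 0 lower (4) with AZA and 2 lower with CHQ, and 1 lower (2) in CHQ minus AZA. For the telomere list, ELA minus ES had a median of -0.51 (0.17) and 3 genes lower (0) with spike-in scaling, 2 lower with the percentile, and 1 with offset 0 and with the deposited table. Its 1 gene lower with AZA became 0 with the mean over probes and at a limit of 2, its 1 higher with CHQ became 0 at a limit of 2, and 1 was lower with CHQ by the percentile and 2 by spike-in scaling. In CHQ minus AZA its 1 higher became 0 with spike-in scaling and at a limit of 2.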
